A study of Mus musculus with 3 samples.

Results

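Expression of 5 genes linked to the aryl hydrocarbon receptor (AHR) was followed in dendritic cells grown from mouse bone marrow. The genes were Cyp1b1, Aldh3a1, Tiparp, Ahr and Arnt, found on the array by the symbols of the platform annotation, and they made up 5 of the 16593 named genes on it. Ahr and Arnt encode the receptor and its DNA-binding partner, and the other genes are classic targets of that pair. The members were chosen by their place in this pathway together with signals and differences already seen on these same arrays, so their differences are a description and carry no test. They were measured by 6 probes, 2 for Arnt and 1 for each of the others. Of the 5 genes, 3 passed a filter that asked for a detection p under 0.01 on at least 1 array, namely Cyp1b1, Aldh3a1 and Arnt.

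Cells came from the marrow of DBA mice aged 6 weeks. All 3 cultures received GM-CSF at 20 ng/ml and IL-4 at 2 ng/ml for 8 days, which pushes marrow precursors toward dendritic cells. The imDC array held immature cells, for which the labels name no stimulus and no hour of harvest. The tDC array, labelled semi-mature or tolerogenic, held cells kept 4 h longer with 50 µg/ml of type II collagen and 10 ng/ml of TNF-alpha. The mDC array, labelled fully mature, held cells kept 24 h longer with lipopolysaccharide at 1 µg/ml and the same collagen at 50 µg/ml. Stimulus and hours differed together between tDC and mDC, so their parts cannot be told apart. Each group was 1 Illumina MouseRef-8 v2 bead array, so precision is limited by the number of arrays.

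AHR is a transcription factor that waits in the cytosol with HSP90 chaperones until it binds a ligand, such as a dioxin, a polycyclic hydrocarbon or a product of tryptophan breakdown. It then enters the nucleus, pairs with ARNT and binds xenobiotic response elements with the core GCGTG, which turns on enzymes that oxidise and clear foreign compounds. Its targets Ahrr and Tiparp feed back to dampen it. In dendritic cells AHR is known for its link to interleukin-10 and to the tryptophan-degrading enzymes that favour tolerance. The DBA/2 strain carries an Ahr allele of low ligand affinity, whereas the labels give the strain here only as DBA.

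The promoters are shown because the AHR and ARNT pair binds this core at its targets. Of the 5 genes, Cyp1b1, Aldh3a1 and Tiparp are such targets, while Ahr and Arnt encode the pair itself. A RefSeq table of promoters (build GRCm38.p6, the reference strain and not DBA) held 3 of the 5 genes, Cyp1b1, Tiparp and Arnt. The 250 bases before each start site were searched on both strands for GCGTG and for its longer form TNGCGTG, which contains it. Each of the 3 promoters held the core 1 time and the longer form 0 times. Over 32851 promoter windows of the same length, 28.2% held the core and 4.1% the longer form, so a core alone is common. The Cyp1b1 window lies on the minus strand at chr17:79715062-79715311, with the core, read from the other strand, in capitals.
Cyp1b1 promoter: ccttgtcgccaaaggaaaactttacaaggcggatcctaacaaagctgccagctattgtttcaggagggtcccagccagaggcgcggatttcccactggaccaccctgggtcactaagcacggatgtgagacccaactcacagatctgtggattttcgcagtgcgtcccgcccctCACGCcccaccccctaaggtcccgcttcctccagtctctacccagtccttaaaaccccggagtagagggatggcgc
Shorter windows around the core of the other promoters lie on the plus strand at chr3:65528259-65528299 for Tiparp and at chr3:95434343-95434383 for Arnt. Capitals again mark the core, on the opposite strand for Tiparp and on the printed strand for Arnt.
Tiparp: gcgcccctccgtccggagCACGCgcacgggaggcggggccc
Arnt: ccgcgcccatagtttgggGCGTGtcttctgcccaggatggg
The core began 76 bases before the start of Cyp1b1, 170 before that of Tiparp and 29 before that of Arnt. A match of letters is a description of the sequence and not a measured binding site.

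Of 25697 probes, between 10673 and 11006 were detected on each array. A detection p compares a probe with negative control beads. The lowest signal that reached a detection p under 0.01 was 160 intensity units on imDC, 156 on tDC and 155 on mDC, and signals near 98.4, 94.5 and 94.7 lay in the middle of the control beads. Log2 levels below are background-corrected, quantile-normalized values, and a difference of 2-fold was needed to count a gene as higher or lower. Where a probe was detected on 1 array of a pair only, the difference is a bound, written "at least". The only measure of error was how far apart 2 detected probes of 1 gene lay in their log2 difference, with a median of 0.13, 0.15 and 0.13 over 1812 to 1846 genes in the 3 comparisons and a 95th percentile of 0.44, 0.57 and 0.44. That gap leaves out variation between cultures.

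Across the 5 genes, Cyp1b1 was higher and Aldh3a1 was lower on the mDC array, Arnt was nearly level on its brighter probe, and Tiparp and Ahr were not above background on any array. In mDC against imDC 1 of the 5 genes was higher at 2-fold, where 6.16% of 7973 measured genes were, and 1 was lower, where 5.96% were. In mDC against tDC the counts were again 1 higher and 1 lower, beside 3.43% and 2.80% of 7832 genes. In tDC against imDC 0 of the 5 were higher, beside 2.88% of 7885 genes, and 0 were lower, beside 2.02%. Both comparisons with imDC share that array, and nothing is read from these shares because the differences helped to choose the genes.

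**Figure D1:**
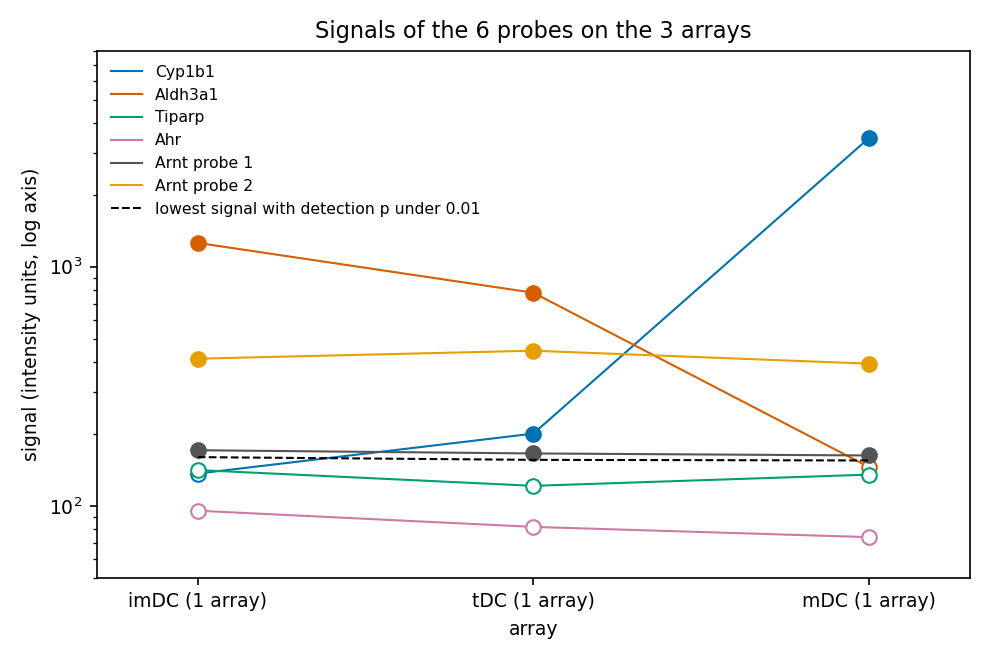
Signal in intensity units (log axis) of the 6 probes on the imDC, tDC and mDC arrays, 1 array each, with filled points for a detection p under 0.01, open points otherwise, and a dashed line at the lowest detected signal. Cyp1b1 goes from 136 to 3455, Aldh3a1 from 1258 to 145, the Arnt probes stay nearly level, and Tiparp and Ahr stay under the line.

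Ahr, the receptor itself, gave signals of 95.4 on imDC, 81.7 on tDC and 74.0 on mDC, with detection p of 0.615, 0.907 and 0.991. All 3 values lay under the middle of the control beads, so there is no fold for Ahr in any comparison. The platform has 1 probe for it. The label of the group as AHR-linked therefore rests on the known roles of the genes and not on a measured receptor transcript. Among genes with several probes, a silent probe beside a detected one was common. Among 2809 genes that had a probe detected on all 3 arrays and at least 1 more probe, 1399 (49.8%) had another probe that was detected on none. That share gives no rate for a gene with 1 probe, such as Ahr. Whether the Ahr probe can detect its transcript in these cells was not tested.

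Arnt, which pairs with AHR and also with the hypoxia factors, was above background on all 3 arrays with both probes. Its brighter probe gave signals of 412 on imDC, 445 on tDC and 393 on mDC. Its dimmer probe gave 171, 166 and 162, close to the detection limit. On the brighter probe tDC was 0.27 above imDC on the log2 scale, mDC was 0.15 above imDC, and mDC was 0.12 below tDC (a log2 difference of -0.12). The dimmer probe gave 0.11, 0.12 and 0.00 for the same comparisons. The probes disagreed by 0.16, 0.03 and 0.12, so their gap was as wide as several of the differences themselves. None of these differences reached 2-fold in any of 8 ways of processing, where the sizes ran from 1.01-fold to 1.21-fold.

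Cyp1b1 encodes a cytochrome P450 that hydroxylates estradiol and activates polycyclic hydrocarbons, and it is an AHR target outside the liver. Its probe gave a signal of 136 on imDC (detection p of 0.0489), 200 on tDC (detection p of 0) and 3455 on mDC (detection p of 0). The imDC value lay under the detection limit, the tDC value a little above it, and the mDC value far above both. Before any normalization the mDC signal was 25.3 times that of imDC and 17.2 times that of tDC. After background correction Cyp1b1 was at least 50.4-fold higher in mDC than in imDC and 28.9-fold higher in mDC than in tDC, a log2 difference of 4.86. Among the 7291 genes detected on both the mDC and tDC arrays only 2 were higher by more, so its place was 3. The differences helped to choose the gene, so nothing is read from that place. Without background correction the differences were at least 23.2-fold and 17.4-fold, and with the authors' processed values at least 23.9-fold and 18.2-fold, as the plot of differences by setting shows.

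From imDC to tDC the difference of Cyp1b1 depended on how the undetected imDC value was treated. The tDC level was at least 1.74-fold higher than imDC, a bound that does not say whether 2-fold was reached. With a detection p under 0.05 in place of 0.01 the imDC value counted as measured, and the difference was 2.44-fold. Without background correction, or with the authors' processed values, the bound was 1.33-fold or 1.32-fold. Between the values as measured, the log2 difference was 6.14 from imDC to mDC, of which 4.86 lay between tDC and mDC.

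Aldh3a1 encodes an aldehyde dehydrogenase that oxidises aromatic and fatty aldehydes and is best known from the cornea, and its induction by dioxin is a textbook AHR response in rat liver and in liver cell lines. Its probe gave signals of 1258 on imDC, 778 on tDC and 145 on mDC, with detection p of 0, 0 and 0.0213. The order was thus the reverse of that of Cyp1b1, and the mDC value lay under the detection limit. Aldh3a1 was at least 14.5-fold lower in mDC than in imDC and at least 9.13-fold lower in mDC than in tDC. In tDC it was 1.59-fold lower than in imDC, a log2 difference of -0.66 that did not reach 2-fold in any setting (1.52-fold to 1.62-fold). Without background correction the bounds for mDC were at least 7.43-fold against imDC and at least 4.88-fold against tDC. With the authors' processed values they were 7.57-fold and 4.94-fold.

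**Figure D2:**
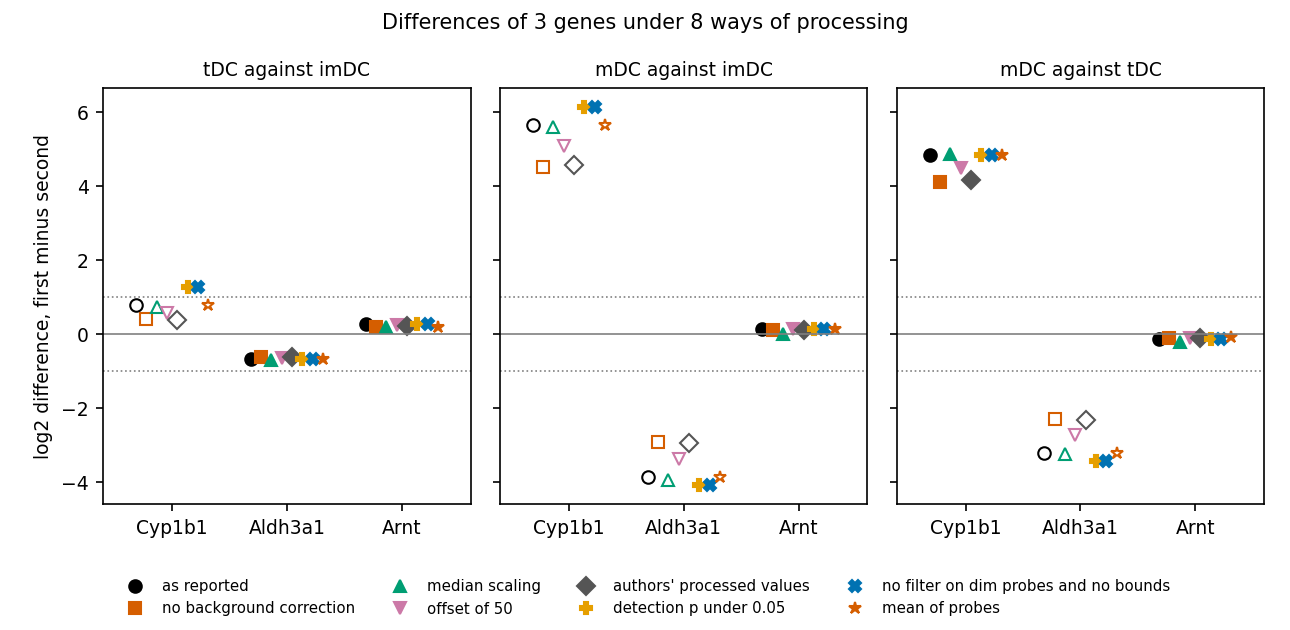
Log2 difference (first group minus second) of Cyp1b1, Aldh3a1 and Arnt in the 3 comparisons under 8 ways of processing the same arrays, with open symbols for bounds and dotted lines at 2-fold. Cyp1b1 stays above 4 and Aldh3a1 below -2 in both comparisons of mDC, while Cyp1b1 crosses 2-fold in tDC against imDC in 2 of 8 settings and Arnt stays near 0.

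Tiparp encodes PARP7, an enzyme that adds single ADP-ribose units to AHR and so limits its action. Its probe gave signals of 141 on imDC, 121 on tDC and 135 on mDC, with detection p of 0.0363, 0.0815 and 0.0388. All 3 lay above the middle of the control beads and under the detection limit. With the looser detection p under 0.05 it counted as measured on imDC and mDC, which differed by 0.08 on the log2 scale. The bounds that involved tDC were then -0.12 against imDC and 0.20 for mDC against tDC. For scale, 12260 probes undetected on every array at 0.05 moved between arrays by a median of 0.10, and by up to 0.35 to 0.37 at their 95th percentile.

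All gene lists here and below were chosen with earlier results of these data known, so their counts and medians are descriptions only. Other genes classically induced by AHR ligands split in these cells. Of 9 such genes on the array (10 were listed), 7 were measured in mDC against imDC, and 3 of them were higher at 2-fold and 0 lower, beside 6.16% and 5.96% of all genes. In tDC against imDC 5 were measured, with 1 higher and 0 lower, beside 2.88% and 2.02%. Cyp1a1 and Cyp1a2, the P450 genes most used as readouts of AHR activity, were not above background on any array. Cyp1a1 gave signals of 92.0, 85.7 and 84.4 on imDC, tDC and mDC, and the brighter Cyp1a2 probe gave 91.4, 92.3 and 93.7. The list medians were 0.12 in tDC against imDC and 0.47 in mDC against imDC, beside 0.00 and -0.0029 for all genes measured. The median of 0.47 was itself the bound of Gsta2. Gsta2 and Gsta1, the latter 1 of the 3 higher genes, were detected on mDC only, so their sign is fixed by the filter. Genes detected on both arrays ran from -0.57 (Xdh) to 1.71 (Ahrr).

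Ahrr, the repressor that competes with AHR for ARNT, gave signals of 318 on imDC, 467 on tDC and 739 on mDC. It was 1.82-fold higher in tDC than in imDC, 3.28-fold higher in mDC than in imDC and 1.80-fold higher in mDC than in tDC. Nqo1, a quinone reductase driven by both AHR and NRF2, gave 235, 528 and 467 on its detected probe. Nqo1 was 3.29-fold higher in tDC and 3.03-fold higher in mDC than in imDC, with tDC and mDC 1.09-fold apart. Its other probe was detected on no array. Its high arrays were thus both stimulated cultures, whereas Cyp1b1 was far higher on mDC than on tDC.

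Gsta1, a glutathione transferase, was not above background on imDC or tDC (98.4 and 98.9) and gave 254 on mDC, at least 2.69-fold higher than imDC. Without background correction that bound was 1.76-fold, and with the authors' processed values 1.75-fold. Gsta2, a near relative whose probe may bind the same transcripts, gave 99.6, 102 and 171, at least 1.39-fold higher in mDC than in imDC. Xdh, xanthine dehydrogenase, and Nfe2l2, which encodes NRF2, had log2 differences of -0.57 and -0.39 in mDC against imDC, short of 2-fold. Ugt1a6a, whose transcript shares exons with other Ugt1a genes, differed from imDC by 0.02 in tDC and 0.01 in mDC on its brightest probe. A dimmer probe gave signals of 168, 132 and 171 on imDC, tDC and mDC, under the detection limit on tDC. Its log2 difference in mDC against imDC was 0.31.

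**Figure D3:**
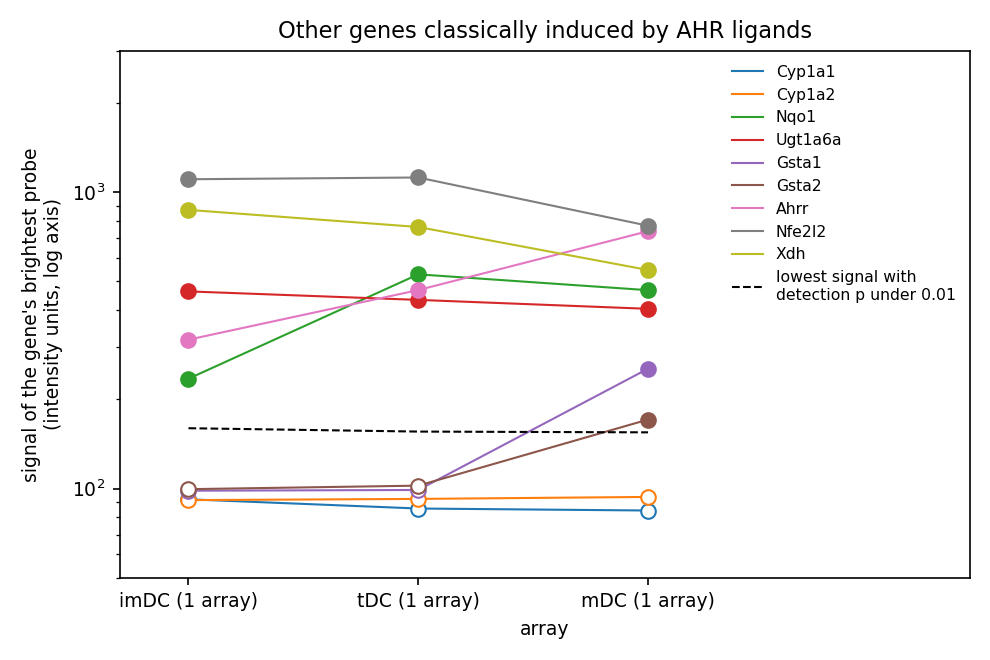
Signal in intensity units (log axis) of the brightest probe of 9 other genes of the AHR response on the imDC, tDC and mDC arrays, 1 array each, filled where the gene was detected (p under 0.01) and open otherwise, with a dashed line at the lowest detected signal. Ahrr goes from 318 to 739, Nqo1 is highest on tDC at 528, Gsta1 and Gsta2 clear the line on mDC only, and Cyp1a1 and Cyp1a2 stay under it.

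Partners and relatives of the receptor were mostly within 2-fold. Of 17 further genes of the bHLH-PAS family, to which AHR and ARNT belong, 6 were measured in mDC against imDC, and Ahrr was the 1 gene at 2-fold, beside 6.16% of all genes higher. Hif1a, the oxygen-regulated partner of ARNT, gave 551, 727 and 632 on imDC, tDC and mDC, with log2 differences of 0.59 in tDC and 0.44 in mDC against imDC. The circadian gene Arntl was 1.74-fold lower in mDC than in imDC, and Clock was 1.34-fold higher in tDC. Ncoa1, a coactivator, was 1.44-fold lower in tDC. Of the 4 chaperone genes listed, 2 were on the array. Ptges3, which encodes the HSP90 co-chaperone p23, had log2 differences of 0.27 and 0.18 in tDC and mDC against imDC. Hsp90aa1 gave 154, 182 and 193 on imDC, tDC and mDC, close to the detection limit and under it on imDC. It was at least 1.47-fold and at least 1.73-fold higher in tDC and mDC, bounds whose sign is fixed by the filter. Its other probe was detected on no array.

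Targets of the hypoxia factors, which share ARNT, were also examined. Of 7 measured HIF targets, 0 were higher and 2 lower at 2-fold in tDC against imDC, beside 2.88% and 2.02% of all genes. The list median was -0.32 beside 0.00 for all genes, and Slc2a1 and Ldha, at -0.02 and -0.06, lay inside the median gap between probes. Pdk1, which shuts pyruvate out of mitochondria, was 2.56-fold lower and the oxygen sensor Egln3 was 2.08-fold lower. The other Egln3 probe was detected on no array. In mDC against imDC 0 of 7 were higher and 0 lower at 2-fold, beside 6.16% and 5.96% of all genes. The list median was -0.11 beside -0.0029 for all genes.

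Of 9 measured genes that make or move tryptophan-derived AHR ligands, 0 were higher and 0 lower at 2-fold in tDC against imDC, beside 2.88% and 2.02% of all genes. In mDC against imDC 2 were higher and 0 lower, beside 6.16% and 5.96%. Ido1, which opens the kynurenine pathway, gave signals of 222 on imDC, 185 on tDC and 395 on mDC. It was 2.70-fold higher in mDC than in imDC and 3.27-fold higher in mDC than in tDC. Slc3a2, a subunit of the transporter that carries tryptophan, was 2.09-fold higher in mDC than in imDC, or 1.71-fold without background correction. Its partner Slc7a5 was 1.34-fold lower. Il4i1, an amino acid oxidase whose products activate AHR, was 1.90-fold higher in tDC and 1.05-fold higher in mDC than in imDC. The transaminase genes Kyat1 and Kyat3 were 1.71-fold and 1.49-fold lower in tDC than in imDC. Kynu and Kmo, enzymes further down the pathway, stayed within 1.27-fold in all comparisons.

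Immune genes for which control by AHR has been described were higher at 2-fold in 4 of 6 measured in tDC and in 5 of 8 in mDC against imDC, with 0 lower in either. Over all genes 2.88% and 6.16% were higher. The list medians were 1.69 and 1.90, beside 0.00 and -0.0029 for all genes. The filter fixes the sign of genes detected on 1 array of a pair, such as Il10 and Il23a. This list holds inflammatory genes that many other signals also drive, and it was chosen with earlier results of these data known. Nothing is read from its counts or medians beside those of all genes. Serpinb2, an inhibitor of plasminogen activators, gave 293, 933 and 2452 on imDC, tDC and mDC, and was 4.51-fold and 12.8-fold higher than imDC. Il1b and Il6 were 6.99-fold and 3.70-fold higher in tDC and 11.9-fold and 17.2-fold higher in mDC. Il10 was above background on mDC only, at least 4.57-fold higher than imDC, or at least 2.61-fold without background correction. Ptgs2, the inducible cyclooxygenase, was at least 3.04-fold higher in mDC, or at least 1.90-fold with the authors' processed values. Il23a was at least 2.80-fold higher in tDC (at least 1.80-fold with the authors' processed values). The other probe of Ptgs2 and that of Il23a were detected on no array. Tgfb1 and Socs2 stayed under 2-fold, and Il22 and Entpd1 were not above background. Of the genes whose proteins bind AHR, Arnt aside, 0 of 5 measured were higher or lower at 2-fold in tDC or in mDC against imDC. Over all genes 2.88% were higher and 2.02% lower in tDC, and 6.16% and 5.96% in mDC. Relb was 1.997-fold higher in tDC and 1.84-fold higher in mDC than in imDC.

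Set among their enzyme families, Cyp1b1 and Aldh3a1 differed by more than any other measured member in mDC against imDC and against tDC, but not in tDC against imDC. Their differences helped to choose them, so nothing is read from that place. Of 74 other cytochrome P450 genes on the array, 12 were measured in mDC against imDC, with 2 higher and 2 lower at 2-fold, beside 6.16% and 5.96% of all genes. Cyp11a1, which cleaves the side chain of cholesterol, was 2.40-fold higher in mDC and 2.63-fold higher in tDC than in imDC. Without background correction these were 1.84-fold and 1.98-fold, under the threshold. Cyp26b1, which degrades retinoic acid, gave 121, 148 and 214 and was at least 2.06-fold higher in mDC (at least 1.46-fold with the authors' processed values). Cyp27a1, a mitochondrial sterol hydroxylase, gave 890, 398 and 214, and was 2.36-fold lower in tDC and 5.33-fold lower in mDC than in imDC. All 3 of its probes had the same signs in both. Cyp2s1 gave 337, 234 and 119 and was at least 3.01-fold lower in mDC, or at least 1.95-fold with the authors' processed values. Cyp51, an enzyme of cholesterol synthesis, was 2.42-fold higher in tDC and 1.55-fold lower in mDC.

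Of 12 other measured aldehyde dehydrogenases, 0 were higher and 1 was lower at 2-fold in mDC against imDC, beside 6.16% and 5.96% of all genes. In tDC against imDC 0 were either, beside 2.88% and 2.02%. The 1 gene was Aldh18a1, an enzyme of proline synthesis, at 2.10-fold. The list medians were -0.37 in tDC and -0.50 in mDC, beside 0.00 and -0.0029 for all genes. In mDC 4 of the 12 values are bounds of genes detected on imDC only, whose sign is fixed by the filter, and the median of the 8 detected on both arrays was -0.42. Aldh3a2, the nearest named relative, was 1.31-fold and 1.15-fold lower in tDC and mDC, and Aldh3b1 was 1.21-fold lower in tDC and 1.26-fold higher in mDC. Aldh1a2, which makes retinoic acid in dendritic cells, was 1.21-fold higher in tDC and 1.46-fold lower in mDC.

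The enzyme family of Tiparp was measured better than Tiparp itself. Of 7 other measured PARP genes, 3 were higher and 0 lower at 2-fold in mDC against imDC, and 0 were either in tDC against imDC. The shares over all genes were 6.16% and 5.96% in mDC and 2.88% and 2.02% in tDC. Parp14 gave signals of 3251, 3457 and 14898 on imDC, tDC and mDC, 4.74-fold higher in mDC than in imDC. Parp12 was 3.73-fold and Parp9 3.21-fold higher. These 3 are known as interferon-induced genes. Parp1 and Parp2, which respond to DNA breaks, were 1.27-fold and 1.11-fold lower.

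**Figure D4:**
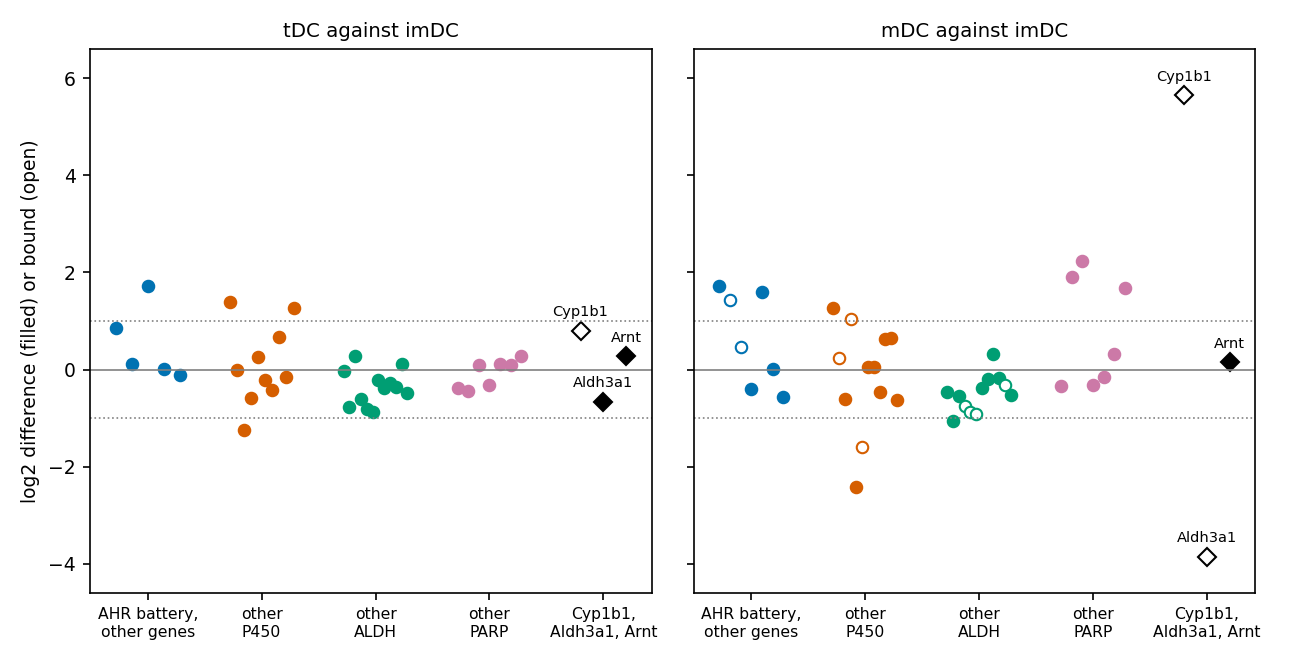
Log2 differences of other AHR response genes, other cytochrome P450, aldehyde dehydrogenase (ALDH) and PARP genes, and Cyp1b1, Aldh3a1 and Arnt, in tDC and in mDC against imDC, filled where detected on both arrays and open for bounds, with dotted lines at 2-fold. In mDC, Cyp1b1 stands at 5.66 and Aldh3a1 at -3.85, outside the range of every family shown, though both were chosen with these differences known. In tDC, Cyp1b1 has a lower bound of 0.80 and Aldh3a1 a difference of -0.66.

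Genes with the most similar profile were sought by the distance between log2 levels over the 3 arrays, each gene centred on its own mean. Values under the detection limit entered as measured, and with 3 arrays many profiles look alike. The nearest to Cyp1b1 was Vnn3, of the pantetheinase family, at a distance of 0.19, with signals of 121, 192 and 2805. Rsad2, an antiviral enzyme, followed at 0.71, then the complement gene Cfb at 0.77, Oasl1 at 0.87 and Fst, which encodes the activin inhibitor follistatin, at 0.89. Within a distance of 1 of Cyp1b1 lay 6 of the 8055 named genes that were detected.

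The nearest to Aldh3a1 was the lectin Mgl2 at 0.22, with signals of 6403, 3533 and 447, followed by Bex4 at 0.24, Hr at 0.29, Eef1a2 at 0.29 and Rab15 at 0.36. Within a distance of 1 lay 23 genes. Arnt, being nearly level, had 7189 genes that near, and the 5 nearest were Mocos, Rhox12, Ep400, Stk11 and Pdcd10, at 0.0032 to 0.011.

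**Figure D5:**
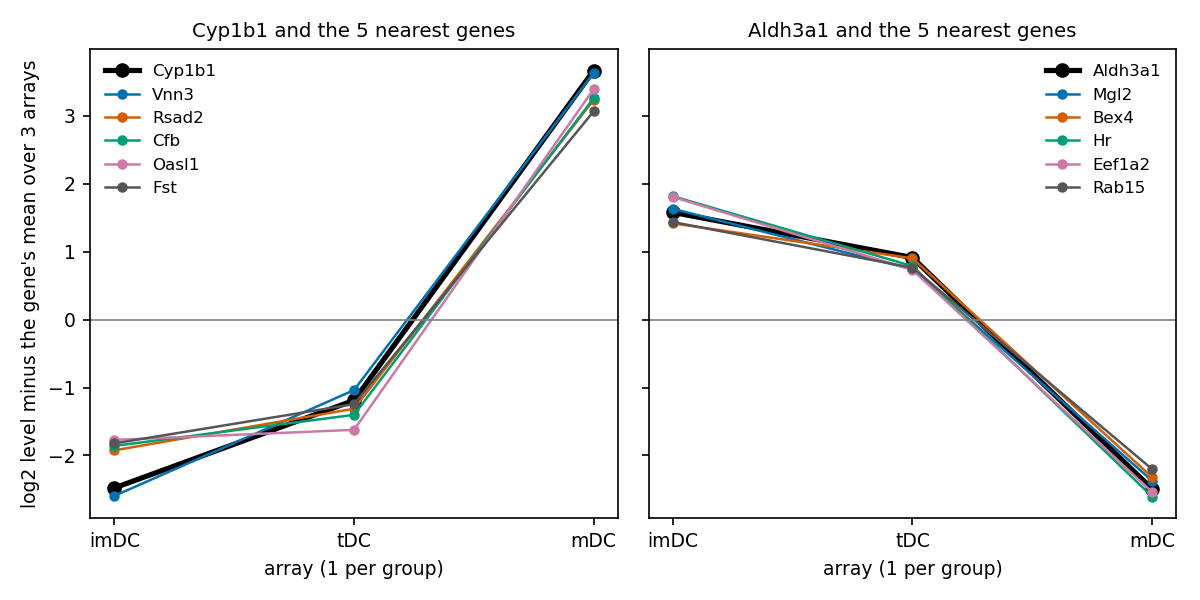
Log2 level minus each gene's own mean over the imDC, tDC and mDC arrays (1 per group), for Cyp1b1 and its 5 nearest genes on the left and Aldh3a1 and its 5 nearest on the right. Vnn3 overlies Cyp1b1 at a distance of 0.19, the other 4 are 0.71 to 0.89 away, and all 5 neighbours of Aldh3a1 are within 0.36.

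In bulk RNA, fewer cells of a type and less RNA per cell cannot be told apart, and markers of several cell types moved with these genes. Dendritic cell markers were detected for 10 of 11 genes on each array, with Flt3 not above background. Their summed normalized level was 109319 on imDC, 116838 on tDC and 85780 on mDC, and most of it came from Cd74 and H2-Ab1. Itgax, which encodes CD11c, was 2.29-fold lower in tDC and 3.88-fold lower in mDC than in imDC. H2-Ab1 was 2.06-fold lower in mDC on its brightest probe (1.94-fold with median scaling). Its other probes, each detected on all 3 arrays, had log2 differences of -1.43, -1.59 and -1.55 in mDC against imDC. Other dendritic cell markers were higher in mDC than in imDC, with Ccr7 at 1.65-fold and Cd86 at 1.44-fold. Of the 10 measured dendritic cell markers, 7 were above 0 and 3 below in tDC against imDC. In mDC against imDC 4 were above 0 and 6 below. Of 9 mast cell and basophil markers on the array, 6, 6 and 7 were detected, and their sum had the same order as Cyp1b1, at 4496, 12651 and 33720, with the tryptases Tpsb2 and Tpsab1 not above background. Hdc, 21.6-fold higher in mDC than in imDC, made up most of the mDC sum, and without it the sums were 3276, 5409 and 7331. Here and below, the marker left out had the highest mDC level of its list. That choice by itself favours a lower remaining mDC sum. Neutrophil markers, 10 of 10 detected on each array, summed to 64951, 121867 and 143068. Without Lcn2 the sums were 59876, 95858 and 78501. In mDC against tDC 3 of the 10 markers were above 0 and 7 below. At 2-fold 2 were higher, Lcn2 (2.48-fold) and Camp (2.28-fold), beside 3.43% of all genes. Another 2 were lower, Elane (2.94-fold) and Retnlg (3.41-fold), beside 2.80%. Against imDC, 10 were above 0 and 0 below in tDC, and 8 above and 2 below in mDC.

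Of 8 macrophage markers, 7, 6 and 5 were detected, with sums of 18451, 12869 and 18391. Adgre1 was 7.99-fold higher in mDC than in imDC, and without it the sums were 16453, 8578 and 2434. Since Adgre1 was left out for its high mDC level, nothing is read from the order of the remaining sums. Mrc1 alone made up most of these sums on imDC and tDC. Mrc1 was 47.1-fold lower in mDC than in imDC, and C1qb was at least 6.74-fold lower, or at least 3.74-fold without background correction. Marco was 7.30-fold and Fcgr1 1.04-fold higher in mDC than in imDC. Of 7 macrophage markers measured in that comparison, 3 were above 0 and 4 below. Stromal and endothelial markers were detected for 2, 2 and 3 of 11 genes, with sums of 1341, 1829 and 2334, or 1181, 1390 and 1060 without Thy1. The collagens Col1a1, Col1a2 and Col3a1 and the receptors Pdgfra and Pdgfrb were not above background on any array. Thy1 was 7.97-fold higher in mDC than in imDC, and Dcn was at least 2.24-fold higher (at least 1.54-fold with the authors' processed values). The other Dcn probe was detected on no array. Of 4 epithelial keratins 0 were detected on any array. The part of these other cells in the differences of Cyp1b1 and Aldh3a1 was not tested.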

How the data were processed

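RNA of 3 cultures, 1 array per group, was hybridised to Illumina bead arrays, from 550 ng of total RNA amplified and labelled with biotin, per the labels' protocols. The authors deposited unnormalized signals as linear intensity values, per the file headers. A detection p-value for each probe was deposited beside them, per the file headers. The submitters' processing notes list GenomeStudio 2011.1. The authors also deposited log2 intensities whose columns hold the same set of values, as quantile normalization gives, and these served as an alternative.

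Signals were corrected here with normexp, fitted from the detection p-values with an offset of 16, quantile normalized and put on the log2 scale (neqc in limma 3.58.1, R 4.3.3). Of 25697 probes, 11556 had a detection p under 0.01 on at least 1 array. The annotation gave 1 symbol to 23978 probes, several to 0 and none to 1719. Symbols were updated through Entrez IDs with a RefSeq table (GRCm38.p6). The brightest kept probe stood for a gene, which gave 8055 genes. For a bound, the undetected side was raised to that array's lowest detected level unless the probe itself lay above it. With 1 array per group no test was possible. The 5 genes and all lists were chosen with earlier results of these data known. Named genes were every member, listed genes at 2-fold (up to 4 per list and comparison), any gene of the chaperone, AHR response, bHLH-PAS and tryptophan lists, and the 5 nearest profiles. Listed genes under 2-fold outside those lists, and markers, were named after their values were seen. Steps were tested on simulated arrays. Alternatives were no background correction, median scaling, an offset of 50, the authors' values, a detection p under 0.05, no filter, and the mean of probes.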

Additional observations from a re-analysis of the deposited data

How the results depend on the processing

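Each difference between 2 arrays was recomputed under 7 alternatives. The count of members at 2-fold stayed the same in 19 of 21 recomputations. The exceptions were in tDC against imDC, where it was 1 in place of 0, Cyp1b1, with a detection p under 0.05 (1) and with no filter and no bounds (1). No member at 2-fold changed its sign. Of 63 recomputed member differences, 53 stayed within 1.5 times and on their side of 2-fold, and 10 moved, as given beside Cyp1b1 and Aldh3a1. Of 84 differences of listed genes and markers at 2-fold, 62 stayed at 2-fold in every setting and 22 fell under it in at least 1, and 0 turned. Over all genes, without background correction 148 were higher and 79 lower in tDC against imDC (227 and 159 as reported), and 132 were lower in mDC against tDC (219). With the authors' processed values 85 were lower in tDC against imDC and 136 in mDC against tDC. The cause of these shifts was not tested. No paired analysis was possible because each group has 1 array. Signals within reach of the control beads limit the values of Ahr, Tiparp, Cyp1b1 on imDC and Aldh3a1 on mDC.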
